A study of Homo sapiens with 9 samples.

Results

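The mRNAs described here encode the eukaryotic initiation factors (eIFs) that act beside the cap-binding complex eIF4F. Members were taken by name: symbols beginning with EIF1, EIF2, EIF3, EIF5 or EIF6, leaving out the eIF2 kinases (EIF2AK). This gave 36 of the 14943 genes in the count table. They fall into eIF1 (4 genes), eIF2 (7), eIF2B (5), eIF3 (15), eIF5 (4) and eIF6 (1). The cells were SH-Sy5y, an established human neuroblastoma line grown in serum, all transfected with a lipid reagent and lysed after 48 h for sequencing of polyadenylated RNA. Control cells (Ctrl.) received 40 pmol of a negative control oligonucleotide, the 10 nM condition 20 pmol of it with 20 pmol of a miR-1229-3p mimic, and the 20 nM condition 40 pmol of mimic with 0 pmol of the control oligonucleotide. The 20 nM and Ctrl. conditions therefore differ both in the mimic and in the control oligonucleotide. Each condition had 3 libraries, numbered 1 to 3 in the labels, and RNA was pooled from a pair of wells where possible.

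Initiation in the cytosol begins when eIF2, loaded with GTP, carries the initiator tRNA to the small ribosomal subunit. eIF1, eIF1A, eIF3 and eIF5 bind the same subunit and take part in scanning of the mRNA and in choosing the start codon. After GTP hydrolysis eIF2B reloads eIF2 with GTP. That step is blocked when stress kinases phosphorylate the alpha subunit of eIF2, which lowers general protein synthesis and favours translation of a few mRNAs such as ATF4. eIF5B joins the large ribosomal subunit, eIF6 keeps that subunit apart until it is needed, and eIF5A, despite its name, works mainly while the chain is elongated. In the nervous system, inherited faults in the eIF2B genes cause a disease of the white matter.

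A microRNA lowers mRNAs whose 3′ untranslated region (UTR) pairs with its seed, which is bases 2 to 8 from the 5′ end. The mature microRNA has 23 bases and lies on the minus strand at chr5:179798278-179798300 (RefSeq, GRCh38.p14). It is shown with the seed in capitals, followed by 30 bases around the strongest match of each of the 5 members that held at least a 7-mer (mRNA strand, GENCODE 44 on GRCh38.p14), with the match in capitals.
miR-1229-3p: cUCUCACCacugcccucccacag
EIF2A, 8-mer, chr3:150585882-150585911, plus strand: tgtgaagacatGGTGAGAAagcagccagct
EIF1AD, 8-mer, chr11:65997624-65997653, minus strand: caccatcattaGGTGAGAAaacagccagcc
EIF3A, 8-mer, chr10:119034658-119034687, minus strand: tattgagtagtGGTGAGAAttcctattggt
EIF3F, 8-mer, chr11:7998754-7998783, plus strand: tttactttggtGGTGAGAAgaggatggcaa
EIF2B2, 7-mer, chr14:75011168-75011197, plus strand: gggcaacagtgGGTGAGActctgtctcaca
A 3′ UTR reaching 50 bases was annotated for 33 of the 36 members, and the longest of each gene was searched. The search ran over the mRNA strand for GGTGAGAA (8-mer), GGTGAGA or GTGAGAA (7-mers) and GTGAGA (6-mer), the last lying inside the others. A 7-mer or 8-mer was present in 5 of 33 members (15.2%), against 3114 of 13778 genes (22.6%). An 8-mer was present in 4 members (12.1%), against 4.61% of all genes. EIF1AX, EIF2S1, EIF3H and EIF3M held a 6-mer only. The EIF2A 8-mer starts at base 1982 of a 3′ UTR of 2105 bases, with a 7-mer of the GTGAGAA kind at base 2076. EIF3F held a pair of GTGAGAA matches beside its 8-mer.

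The libraries held 17.4 to 28.2 M estimated counts each. One stood apart. The first principal component held 30.4% of the variance, and its score was 47.4 for 20 nM replicate 3 and -17.1 to 7.72 for the rest. Summed noradrenergic neuroblastoma markers (12 of 12 in the table) ranged over 6889 to 6995 CPM (counts scaled to a library of 1 M) in Ctrl., 7193 to 7764 at 10 nM and 6853 to 8154 at 20 nM. Of the mesenchymal or Schwann-like markers 5 of 7 were in the table, and their sum ranged over 53.1 to 83.0, 50.9 to 78.9 and 53.3 to 72.8 CPM in the same order. Blood markers (1 of 4 in the table, without PTPRC, CD3E and HBB) summed to at most 1.62 CPM in any library. Epithelial markers (3 of 4, without KRT8) summed to at most 2.88 CPM. The part of these differences in the results was not tested. Since bulk RNA was measured, a change in the number of cells of one state and a change in RNA per cell cannot be told apart. The labels do not say whether replicates came from separate cultures, so p-values measure the spread between these libraries, which may be technical.

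**Figure D1:**
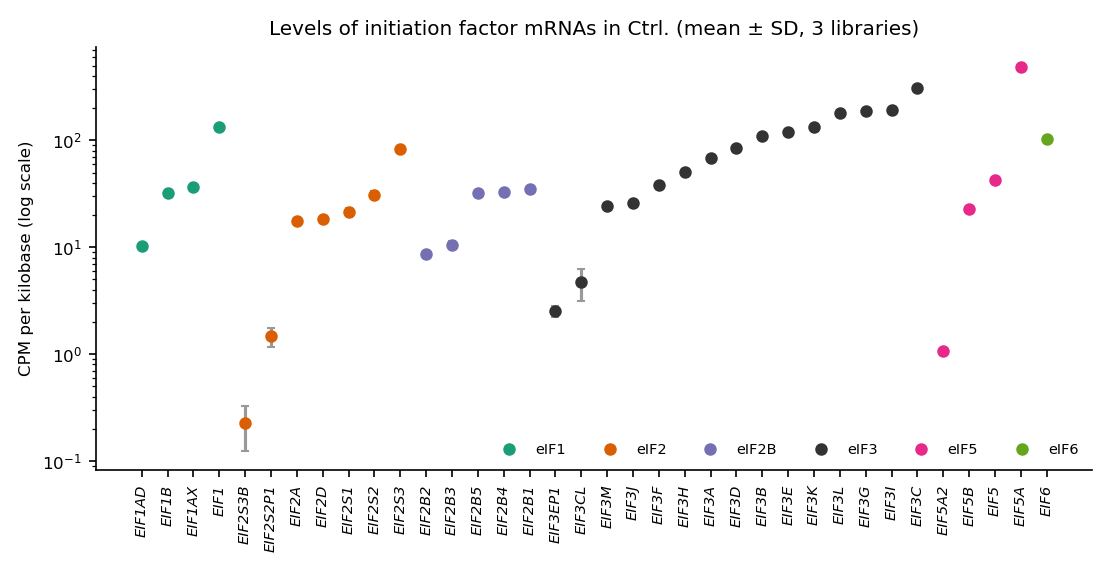
Level of each member in Ctrl. in CPM per kilobase of its canonical transcript (log axis), ordered within each group, with points for the mean and bars for the SD of 3 libraries. EIF5A (486) and EIF3C (306) lie highest and EIF2S3B (0.225) lowest.

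Levels between genes were compared in CPM per kilobase of the canonical transcript. In Ctrl. the highest level belonged to EIF5A, with 486 CPM per kilobase, followed by EIF3C with 306. The core subunits EIF3I and EIF3G, at 191 and 187, lay next to EIF3L at 180 CPM per kilobase. At the other end of the 13 eIF3 subunits were EIF3M (24.6) and EIF3J (26.1), the latter being the loosely held subunit of the complex. The 3 subunits of eIF2 were at 21.4 (EIF2S1, alpha), 30.9 (EIF2S2, beta) and 82.3 CPM per kilobase (EIF2S3, gamma). Among the subunits of eIF2B, EIF2B1, EIF2B4 and EIF2B5 lay close together at 35.3, 32.7 and 32.2, whereas EIF2B3 (10.6) and EIF2B2 (8.68) were lower. EIF5A2, the second eIF5A gene, was at 1.06 CPM per kilobase. These levels rest on a single transcript per gene. The canonical EIF3F transcript has 6920 bases, of which 5840 are 3′ UTR, so that shorter EIF3F forms would give it a higher level than the 38.6 CPM per kilobase found. The same limit holds for the low levels of EIF3M, EIF2B2 and EIF2S1, whose canonical transcripts have 5047, 4304 and 4154 bases.

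The first question was which of these mRNAs changed at the lower concentration. Fold changes come from a model with a surrogate variable, which stands for unexplained variation between libraries, and differ from the ratio of mean CPM. At 10 nM 0 of 36 members passed the threshold (edgeR quasi-likelihood test, p under 0.05 after Benjamini-Hochberg adjustment), where 97 of all genes (0.649%) did. An unadjusted p under 0.05 was found for 3 members (EIF2A, EIF3K and EIF3EP1). The DESeq2 Wald test called 1 (EIF2A), where it called 2.63% of the genes given an adjusted p. Without 20 nM replicate 3, which enters the shared fit only, the model took 2 surrogate variables and 4 members (11.1%) were called higher (EIF2A, EIF3G, EIF3K and EIF6), where 8.82% of all genes were called. With 1 surrogate variable that count was 0 of 36, against 1.07% of all genes. The median log2 fold change of the members was 0.05, against 0.00047 over all genes, and 25 of 36 values lay above 0. With only the 6 libraries compared the members' median was 0.03, and without 10 nM replicate 1 it was 0.08. For 29 of 36 members the 95% interval of the log2 fold change at 10 nM lay within 0.25 of 0.

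At 20 nM EIF2A and EIF5A2 passed the threshold, both higher. These are 2 of 36 members (5.56%), where 13.9% of all genes were called and 7.8% were called higher. The median log2 fold change of the members was 0.05, with 30 of 36 values above 0, against -0.00016 over all genes. The members' median was 0.03 without 20 nM replicate 2 and 0.08 without 20 nM replicate 1. In log2 of CPM over the mean of Ctrl., the median of the members was 0.04, 0.10 and -0.0020 in 20 nM replicates 1 to 3, with 24, 30 and 18 of 36 above 0. For 25 of 36 members the 95% interval lay within 0.25 of 0, and 6 had an unadjusted p under 0.05. Between 20 nM and 10 nM 1 member (EIF2A) was called, higher, against 2.79% of all genes called and 1.91% called higher. In the dose trend, which takes the concentration as a number and gives the change per 20 nM, 4 members (11.1%) were called. All 4 were higher (EIF2A, EIF5A2, EIF3B and EIF5A), against 17.5% of all genes called and 9.84% called higher. The share of members called lay below that of all genes at 20 nM and in the trend, and was about the same as it at 10 nM and from 10 nM to 20 nM (2.78%), where it rests on 0 and 1 members. None of the 36 were called lower, by edgeR or DESeq2, where 0.428% of all genes were called lower at 10 nM, 6.08% at 20 nM, 0.883% between them and 7.69% in the trend. These comparisons share the same control libraries.

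**Figure D2:**
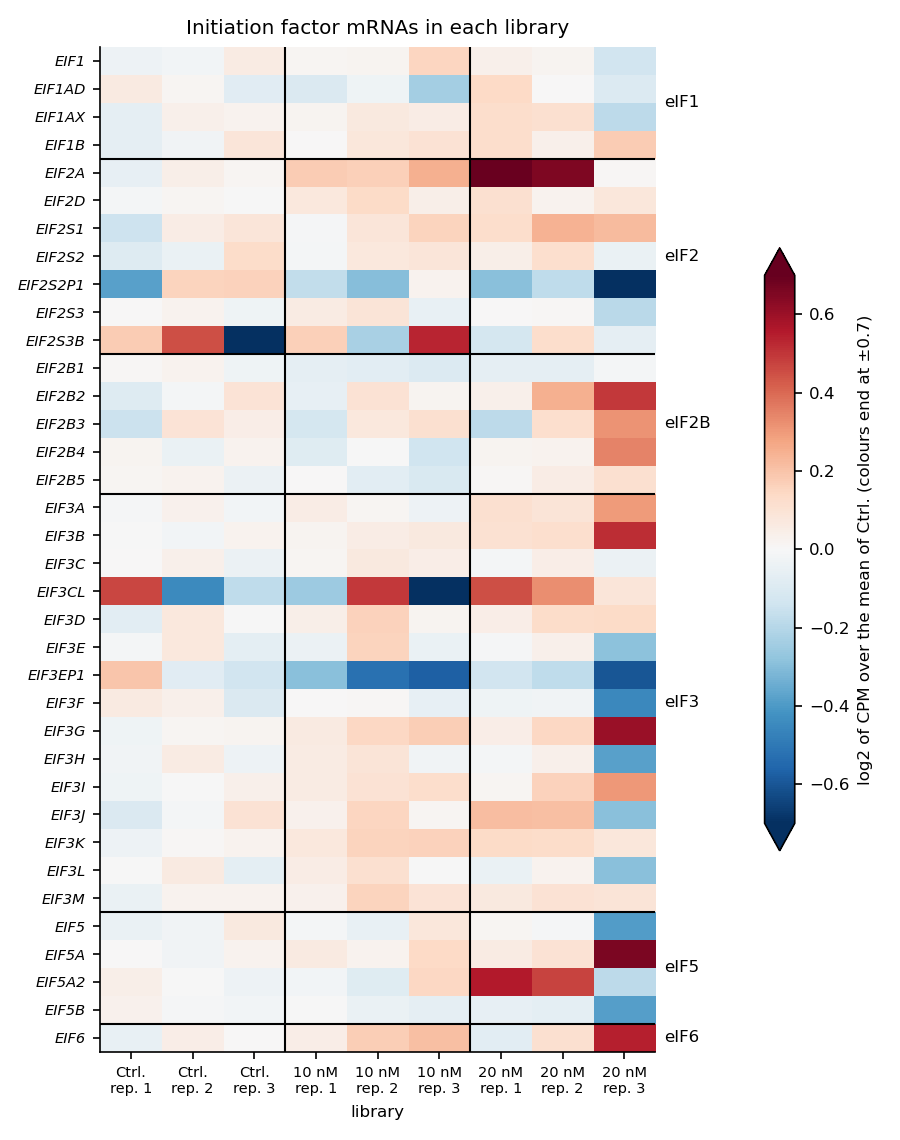
Each member (row) in each library (column) as log2 of its CPM over the mean of Ctrl., with red above and blue below that mean and colours ending at 0.7 either way. EIF2A and EIF5A2 are dark red in 20 nM replicates 1 and 2 and pale or blue in replicate 3, where EIF5A, EIF3G, EIF6 and EIF3B are the most red.

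**Figure D3:**
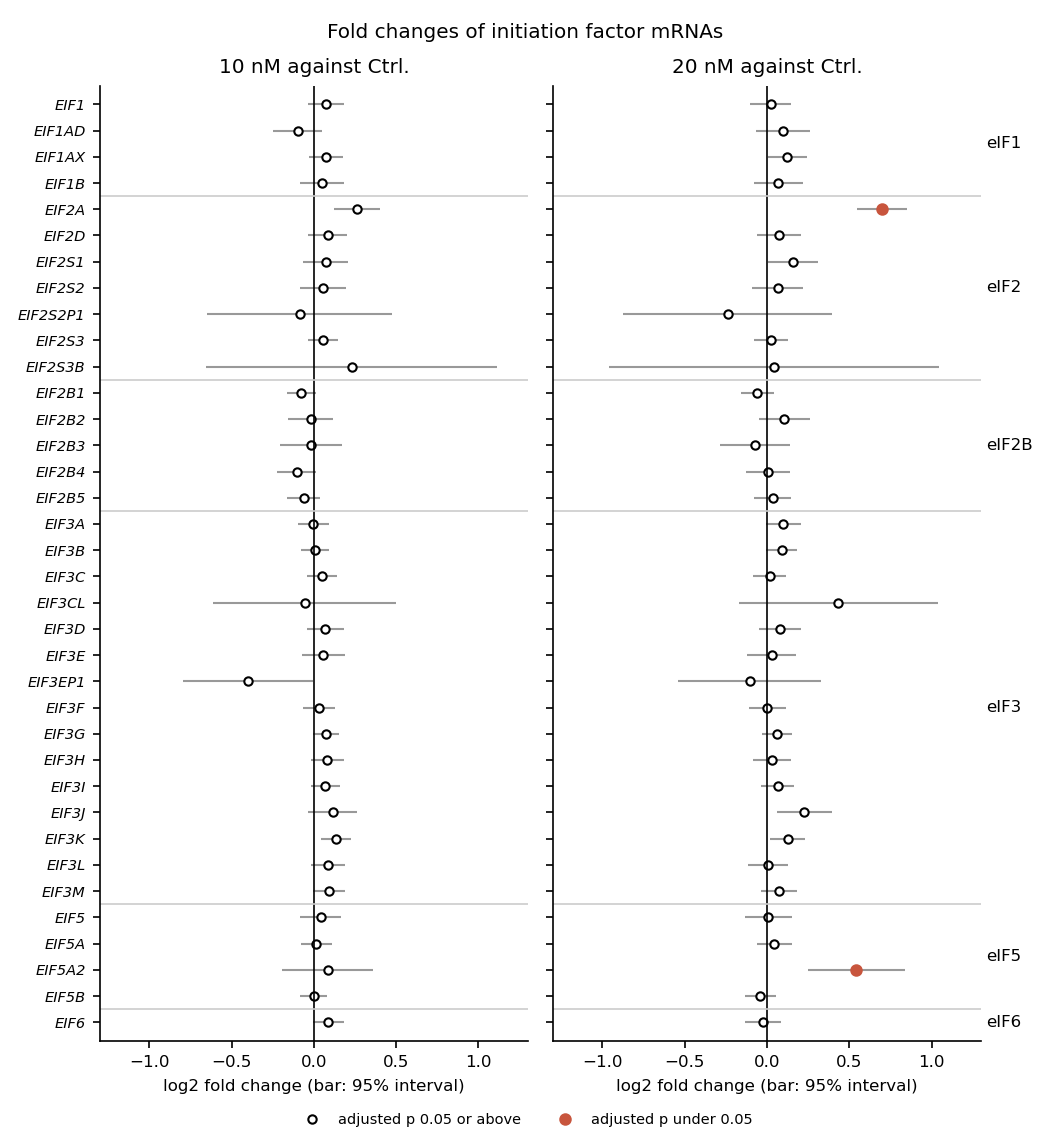
Model log2 fold change of each member against Ctrl. at 10 nM and 20 nM, with bars for the 95% interval and filled points for an adjusted p under 0.05. At 20 nM 2 points are filled, EIF2A (0.70) and EIF5A2 (0.54), and the widest bars belong to copies read at few counts such as EIF2S3B.

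EIF2A showed the clearest change of all members. It encodes a single-chain factor that can bring initiator tRNA to the ribosome and is not the alpha subunit of eIF2, which is EIF2S1. In order of replicate number, its Ctrl. libraries held 65.98, 70.9 and 69.5 CPM, those at 10 nM 77.8, 77.1 and 81.7, and those at 20 nM 111, 108 and 69.2. All 10 nM libraries lay above all controls, while at 20 nM replicates 1 and 2 lay far above and replicate 3 lay among the controls. Against the same-numbered control the 20 nM libraries were at 1.68, 1.52 and 0.995 times the CPM. The log2 fold change of EIF2A was 0.26 ± 0.06 (SE) at 10 nM (edgeR quasi-likelihood test, adjusted p = 0.0912) and 0.70 ± 0.07 at 20 nM (adjusted p = 5.27e-05). From 10 nM to 20 nM it was 0.43 ± 0.07 (edgeR, adjusted p = 0.00378), and in the dose trend 0.61 ± 0.07 per 20 nM (edgeR, adjusted p = 0.000114). EIF2A was thus higher although its 3′ UTR holds the 8-mer shown above.

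With surrogate variables in the model, the EIF2A change was close in size with and without 20 nM replicate 3. Its log2 fold change at 20 nM was 0.67 without that library (edgeR, adjusted p = 1.84e-09). Both fits held surrogate variables, so they do not show the weight of that library in a fit without them. Over 20 alternatives the adjusted p ran from 1.19e-17 to 0.0669. When the replicate number entered as a block and the surrogate variable was left out, EIF2A had a smaller value of 0.47 at 20 nM (edgeR, adjusted p = 0.0568) and 0.47 in the trend (adjusted p = 0.0342), and with neither it had 0.48 at 20 nM (adjusted p = 0.0669). From 10 nM to 20 nM the call was lost without 20 nM replicate 1 (0.36, edgeR adjusted p = 0.0802) or replicate 2 (0.37, adjusted p = 0.0560). It was also lost with the block (0.27, adjusted p = 0.420) and with no surrogate variable (0.28, adjusted p = 0.548), among alternatives ranging from 3.46e-07 to 0.548. The exons of SERP1, on the opposite strand, cover 143 bases (3.69%) of the EIF2A transcript, and whether the counting used strand is not stated. SERP1 itself had a log2 fold change of 0.11 at 20 nM (edgeR, adjusted p = 0.196) and was highest in 20 nM replicate 3 at 168 CPM.

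EIF5A2 encodes a second form of eIF5A that most tissues hold at a low level. Its Ctrl. libraries held 6.01, 5.84 and 5.70 CPM, the 10 nM libraries 5.77, 5.52 and 6.46, and the 20 nM libraries 8.58, 8.13 and 5.15. As with EIF2A, the first and second 20 nM libraries lay above all controls, whereas replicate 3 lay below them. The log2 fold change of EIF5A2 was 0.08 ± 0.13 (SE) at 10 nM (edgeR quasi-likelihood test, adjusted p = 0.814), 0.54 ± 0.14 at 20 nM (adjusted p = 0.0188) and 0.48 ± 0.14 in the dose trend (adjusted p = 0.0291). At 20 nM the call was lost with the replicate block (0.30, edgeR adjusted p = 0.268) and with no surrogate variable (0.315, adjusted p = 0.300). It was also lost without 20 nM replicate 1 (adjusted p = 0.153), 20 nM replicate 2 (adjusted p = 0.105) or Ctrl. replicate 3 (adjusted p = 0.0505). Over 20 alternatives the adjusted p ranged from 0.00212 to 0.300. The EIF5A2 trend was lost with the block (0.30, edgeR adjusted p = 0.240) and with no surrogate variable (0.32, adjusted p = 0.268). The DESeq2 Wald test lost it too (0.47, adjusted p = 0.0643), as did coding the mimic as present or absent (edgeR, adjusted p = 0.370). It was also lost without 20 nM replicate 1 (0.23, adjusted p = 0.318) or replicate 2 (0.38, adjusted p = 0.170). Leaving out each Ctrl. replicate lost it as well (adjusted p = 0.0538, 0.0676 and 0.0613). Over 20 alternatives the adjusted p ranged from 0.00964 to 0.370. No seed match was found in the 3′ UTR of EIF5A2.

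EIF3B, a core subunit of eIF3, was at 339, 335 and 345 CPM in Ctrl., 344, 352 and 356 at 10 nM, and 365, 368 and 485 at 20 nM. EIF5A, the hypusine-carrying factor, was at 615, 603 and 626 CPM in Ctrl., 643, 624 and 676 at 10 nM, and 639, 660 and 972 at 20 nM. For both, every 20 nM library lay above every control, and replicate 3 was by far the highest. Their log2 fold changes passed the threshold in the dose trend only, at 0.15 ± 0.04 for EIF3B (edgeR quasi-likelihood test, adjusted p = 0.0187) and 0.14 ± 0.04 for EIF5A (adjusted p = 0.0314). At 20 nM against Ctrl. they were 0.09 and 0.05 (edgeR, adjusted p = 0.205 and 0.611). Without 20 nM replicate 3 the trend of EIF3B was 0.10 (edgeR, adjusted p = 0.0753) and that of EIF5A 0.07 (adjusted p = 0.239). Over 20 alternatives the trend call was kept in 11 for EIF3B (adjusted p 0.00525 to 0.566) and in 7 for EIF5A (adjusted p 0.00610 to 0.660). The EIF3B trend was also lost without Ctrl. replicate 1 or 3, 10 nM replicate 2 or 20 nM replicate 2 (edgeR, adjusted p = 0.0791, 0.0957, 0.0518 and 0.120). The EIF5A trend was also lost without any one Ctrl. replicate (edgeR, adjusted p = 0.173, 0.0769 and 0.234), 10 nM replicate 1 or 2 (0.0566 and 0.103) or 20 nM replicate 2 (0.189). With the replicate block the trends were larger, at 0.25 for EIF3B and 0.28 for EIF5A, and not past the threshold (edgeR, adjusted p = 0.0581 and 0.0813). Both trend calls were also lost with no surrogate variable (edgeR, adjusted p = 0.108 and 0.152). Coding the mimic as present or absent lost them too (edgeR, adjusted p = 0.566 and 0.660). That of EIF5A was also lost with library totals alone (edgeR, adjusted p = 0.102). Exons of GPS2, on the opposite strand, cover 145 bases (11.5%) of the EIF5A transcript.

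**Figure D4:**
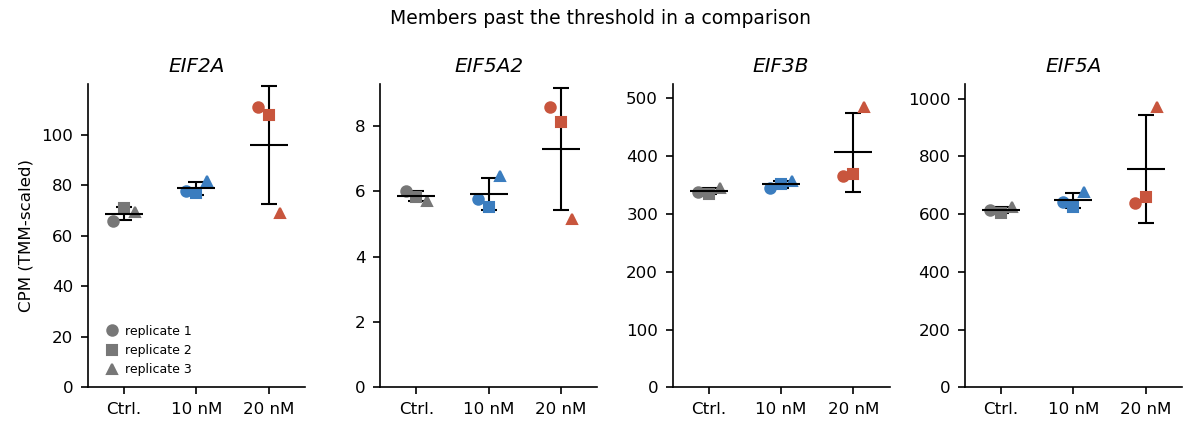
CPM of the 4 members past the threshold in any comparison, by condition, with a symbol for each replicate number and bars for the mean and SD of 3 libraries. The triangle of 20 nM replicate 3 lies at 69.2 and 5.15 for EIF2A and EIF5A2, below the other 20 nM libraries, and at 485 and 972 for EIF3B and EIF5A, above them.

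In the eIF1 group, 0 of 4 members were called in any comparison by edgeR or DESeq2, with an unadjusted p under 0.05 for EIF1AX at 20 nM and for EIF1AD between 20 nM and 10 nM. EIF1, which holds the scanning ribosome open for start codon choice, was at 306, 310 and 327 CPM in Ctrl., 318, 319 and 349 at 10 nM, and 323, 318 and 286 at 20 nM. Its ranges overlapped between all conditions, and its dose trend was the lowest of the group at -0.0046 ± 0.06 (edgeR quasi-likelihood test, adjusted p = 0.969). EIF1AD, named for a domain like that of eIF1A, had the highest at 0.08 ± 0.08 (adjusted p = 0.557). It was at 31.5, 30.5 and 28.6 CPM in Ctrl., 28.2, 29.6 and 25.6 at 10 nM, and 33.3, 30.3 and 28.2 at 20 nM. EIF1AD mRNA holds an 8-mer, and its log2 fold change was -0.10 at 10 nM (95% interval -0.25 to 0.05) and 0.10 at 20 nM (-0.06 to 0.26). EIF1AX, which encodes eIF1A, and EIF1B, a close relative of EIF1, had log2 fold changes of 0.12 and 0.07 at 20 nM.

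In the eIF2 group EIF2A was the 1 member of 7 called. The alpha subunit EIF2S1, the site of stress phosphorylation, was at 80.5, 92.1 and 94.1 CPM in Ctrl., 88.5, 94.4 and 99.2 at 10 nM, with 97.0, 105 and 104 at 20 nM. All 20 nM libraries lay above all controls. The log2 fold change of EIF2S1 was 0.16 ± 0.07 at 20 nM (edgeR quasi-likelihood test, adjusted p = 0.155) and 0.16 ± 0.06 in the trend (adjusted p = 0.0966). With the replicate block it was 0.20 in both and passed the threshold (edgeR, adjusted p = 0.0407 and 0.0268). EIF2S2 (beta) and EIF2S3 (gamma) had 0.07 and 0.02 at 20 nM, and EIF2D, which binds tRNA at the ribosome without GTP, had 0.07 with all its 20 nM libraries above the controls. The lowest trend of the group was that of EIF2S2P1, a pseudogene of EIF2S2 at 1.38, 2.0 and 2.01 CPM in Ctrl., 1.60, 1.46 and 1.83 at 10 nM, and 1.46, 1.59 and 1.01 at 20 nM. Its trend was -0.33 ± 0.28 (edgeR, adjusted p = 0.461). EIF2S3B, a copy of EIF2S3, reached at most 0.857 CPM in any library.

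The 5 subunits of eIF2B, the exchange factor that reloads eIF2, had log2 fold changes below 0 at 10 nM, from -0.11 (EIF2B4) to -0.0185 (EIF2B3), with 0 called. At 20 nM they ran from -0.08 (EIF2B3) to 0.10 (EIF2B2), again with 0 of 5 called. DESeq2 called 0 as well, and 0 had an unadjusted p under 0.05 at either concentration. The signs come from the model. In mean CPM, EIF2B2 and EIF2B3 were higher at 10 nM (38.0 and 20.4) than in Ctrl. (37.4 and 20.1). EIF2B3 was also higher at 20 nM, at a mean of 21.5 CPM, with 17.7, 21.8 and 24.9 in its libraries against 18.1, 21.4 and 20.7 in Ctrl. EIF2B1, a regulatory subunit, was at 85.0, 86.1 and 82.9 CPM in Ctrl., 81.2, 80.6 and 79.3 at 10 nM, and 81.0, 81.1 and 84.0 at 20 nM. Its 10 nM libraries all lay below the controls, and its trend was the lowest of the group at -0.05 ± 0.05 (edgeR quasi-likelihood test, adjusted p = 0.516). Exons of DDX55, on the opposite strand, cover 538 bases (22.4%) of the EIF2B1 transcript. EIF2B2, also regulatory, was at 35.1, 37.1 and 39.9 CPM in Ctrl., 36.0, 40.1 and 37.9 at 10 nM, and 38.3, 44.3 and 52.7 at 20 nM. EIF2B2 had a trend of 0.15 ± 0.07 (edgeR, adjusted p = 0.157), and its highest library was 20 nM replicate 3. EIF2B5, the catalytic subunit, had log2 fold changes of -0.06 at 10 nM and 0.03 at 20 nM.

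eIF3 is the largest initiation factor, a scaffold on the small ribosomal subunit. Its 13 subunits had log2 fold changes from 0.0015 (EIF3F) to 0.23 (EIF3J) at 20 nM, with a median of 0.07 and 13 of 13 above 0. From 10 nM to 20 nM 4 of the 13 lay above 0 and 9 below, and in the dose trend 8 above and 5 below. In mean CPM, EIF3C, EIF3E, EIF3F, EIF3H and EIF3L were lower at 20 nM than in Ctrl. None of these 13 passed the threshold at 20 nM, with 2 at an unadjusted p under 0.05 (EIF3J and EIF3K) and 0 called by DESeq2. In the dose trend edgeR called EIF3B (17.5% of all genes). DESeq2 called EIF3B and EIF3A there (17.4% of the genes it tested). At 10 nM the subunits ran from -0.0045 (EIF3A) to 0.13 (EIF3K), with 12 of 13 above 0. EIF3K, a peripheral subunit, was at 100, 103 and 104 CPM in Ctrl., 108, 114 and 115 at 10 nM, and 112, 112 and 108 at 20 nM. All its mimic libraries lay above all controls, at log2 fold changes of 0.13 ± 0.04 at 10 nM (edgeR quasi-likelihood test, adjusted p = 0.186) and 0.13 ± 0.05 at 20 nM (adjusted p = 0.108). EIF3G and EIF3M likewise had all 10 nM and all 20 nM libraries above the controls. EIF3J was at 60.4, 64.2 and 69.5 CPM in Ctrl., 66.2, 71.8 and 65.3 at 10 nM, and 75.1, 74.9 and 52.8 at 20 nM. Its log2 fold change at 20 nM was 0.23 ± 0.08 (edgeR, adjusted p = 0.0703), and without 20 nM replicate 3 it was 0.21 (adjusted p = 0.00776).

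The scaffold subunit EIF3A and the subunit EIF3F both hold an 8-mer. The log2 fold change of EIF3A was 0.10 at 20 nM (95% interval -0.0088 to 0.21), and that of EIF3F 0.0015 (-0.11 to 0.11). Among all 5 members with a 7-mer or 8-mer, the log2 fold changes at 20 nM ran from that of EIF3F to that of EIF2A. None of the 5 were called lower, which at 6.08% of all genes called lower at 20 nM says little about members with a match. The remaining subunits had log2 fold changes at 20 nM of 0.09 (EIF3B), 0.02 (EIF3C), 0.08 (EIF3D, a subunit that can bind the cap of some mRNAs), 0.03 (EIF3E), 0.06 (EIF3G), 0.03 (EIF3H), 0.07 (EIF3I), 0.0052 (EIF3L) and 0.08 (EIF3M). The lowest and highest trends of the group belonged to its gene copies. EIF3EP1, a pseudogene of EIF3E, was at 3.78, 3.14 and 3.02 CPM in Ctrl., 2.71, 2.31 and 2.23 at 10 nM, and 3.01, 2.92 and 2.19 at 20 nM. All its mimic libraries lay below the controls, 20 nM replicate 1 by the smallest margin, with a log2 fold change of -0.40 ± 0.18 at 10 nM (edgeR quasi-likelihood test, adjusted p = 0.349) and a trend of -0.11 ± 0.20 (adjusted p = 0.745). KHDC1 shares 43 bases with it on the opposite strand and had -0.51 at 10 nM (edgeR, adjusted p = 0.277).

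EIF3CL is a near-identical copy of EIF3C. Of its stretches of 31 bases, 98.4% also occur in EIF3C, so the counting could divide reads between the copies in any ratio. EIF3CL was at 18.9, 10.0 and 12.1 CPM in Ctrl., 11.5, 19.3 and 8.23 at 10 nM, and 18.7, 17.2 and 14.5 at 20 nM, while EIF3C stayed between 866 and 937 CPM in all 9 libraries. The spread of EIF3CL within Ctrl. was thus as wide as any difference between conditions, and its trend of 0.36 ± 0.27 did not pass the threshold (edgeR quasi-likelihood test, adjusted p = 0.397). The other copies shared fewer stretches with their parents, at 30.2% for EIF2S3B, 15% for EIF3EP1 and 12.6% for EIF2S2P1. For EIF5A2 against EIF5A and for EIF1B against EIF1 the share was 0.

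The GTPase EIF5B had the lowest trend of the eIF5 group. It was at 134, 130 and 129 CPM in Ctrl., 131, 127 and 126 at 10 nM, and 126, 125 and 100 at 20 nM. Its 20 nM libraries all lay below the controls, with a trend of -0.09 ± 0.04 (edgeR quasi-likelihood test, adjusted p = 0.162). REV1 exons on the opposite strand cover 852 bases (14.8%) of the EIF5B transcript. EIF5, which triggers GTP hydrolysis on eIF2, had log2 fold changes of 0.04 at 10 nM and 0.0081 at 20 nM. EIF6, the anti-association factor of the large ribosomal subunit, was at 106, 114 and 110 CPM in Ctrl., 114, 124 and 127 at 10 nM, and 105, 119 and 161 at 20 nM. Its lowest and its highest library were both at 20 nM, and EIF6 had log2 fold changes of 0.09 ± 0.04 (SE) in the 10 nM condition (edgeR, adjusted p = 0.397) and -0.02 ± 0.05 in the 20 nM condition (adjusted p = 0.813).

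Counted by library ranges alone, 6 members had all 10 nM libraries above all controls in CPM (EIF2A, EIF2D, EIF3G, EIF3I, EIF3K and EIF3M), or 16.7% against 10.1% of all genes. At 10 nM, 2 members had all libraries below (EIF2B1 and EIF3EP1), or 5.56% against 9.9%. At 20 nM 8 members lay wholly above (EIF2D, EIF2S1, EIF3A, EIF3B, EIF3G, EIF3K, EIF3M and EIF5A), or 22.2% against 15.2%, and 2 wholly below (EIF3EP1 and EIF5B), or 5.56% against 13.7%. EIF2A and EIF5A2, the 2 members called at 20 nM, are in neither 20 nM list, since 20 nM replicate 3 lay among or below the controls.

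Without 20 nM replicate 3 the model took 2 surrogate variables, and 10 members (27.8%) were called at 20 nM, where 4370 of all genes (29.2%) were. They were EIF1AX, EIF2A, EIF2S1, EIF3A, EIF3B, EIF3G, EIF3J, EIF3K, EIF5A and EIF5A2, all higher. With 1 surrogate variable and without that library there were 3 (EIF2A, EIF3J and EIF5A2), or 8.33% against 17.8% of all genes. In the dose trend, leaving out 20 nM replicate 1 gave 9 called members (8 higher and EIF5B lower), or 25% against 22.2% of all genes. Leaving out 20 nM replicate 2 or Ctrl. replicate 1 gave 1, EIF2A, against 9.16% and 11.8% of all genes. With the replicate block the members called were EIF2S1 at 20 nM, 0 between 20 nM and 10 nM, and EIF2A and EIF2S1 in the trend, where 13.6%, 0.83% and 16.4% of all genes were called.

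The departure of 20 nM replicate 3 was ordered by base composition among the members. Its difference from the mean of 20 nM replicates 1 and 2, in log2(CPM + 0.5), ran from -0.66 (EIF2A) and -0.65 (EIF5A2) to 0.52 (EIF6) and 0.58 (EIF5A). Across the 35 members with a mean of at least 1 CPM, this difference correlated with the G + C content of the canonical transcript at Pearson's r = 0.709 and Spearman's rho = 0.689. The points share the same 3 libraries. The same correlation over 13631 genes was r = 0.565 and rho = 0.642, and for 20 nM replicate 1 minus replicate 2 it was r = -0.205 in the members and -0.185 over all genes. The SD of the difference over members was 0.334 for replicate 3 and 0.090 for replicate 1 minus replicate 2. The 4 called members lie at the ends of this range: EIF2A and EIF5A2, with 38.8% and 33.9% G + C, are its lowest, and EIF5A and EIF3B, with 56.6% and 56.9%, are among its 4 highest. The part of base composition in the calls was not tested.

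**Figure D5:**
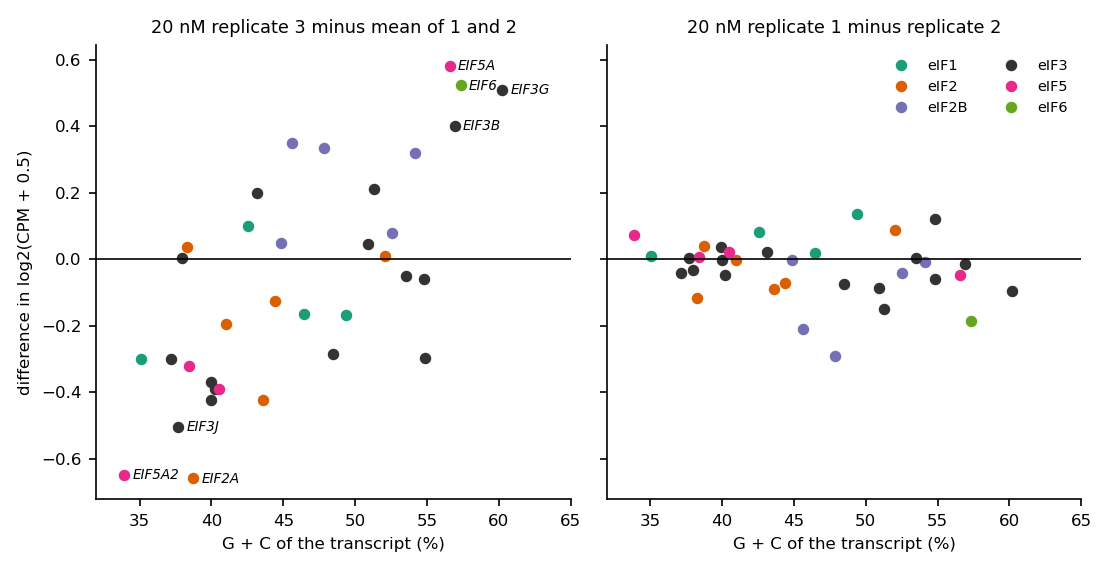
G + C content of each member's canonical transcript against the difference in log2(CPM + 0.5) between 20 nM libraries, replicate 3 minus the mean of replicates 1 and 2 on the left and replicate 1 minus replicate 2 on the right, for 35 members with a mean of at least 1 CPM. The left points rise with G + C (r = 0.709) from EIF2A and EIF5A2 to EIF5A, and the right points lie between -0.29 and 0.14.

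The regulators of eIF2 and other translation factors were followed as lists, of which none had a gene called at 10 nM by edgeR or DESeq2 (unadjusted p under 0.05 in 0 to 2 genes a list). Over all genes 0.649% were called at 10 nM, 13.9% at 20 nM and 17.5% in the trend. Of the 4 eIF2 kinases 1 was called higher at 20 nM and in the trend: EIF2AK3, the kinase of the endoplasmic reticulum, with log2 fold changes of 0.12 at 10 nM and 0.27 at 20 nM (edgeR quasi-likelihood test, adjusted p = 0.294 and 0.00635). EIF2AK3 was at 46.1 to 47.7 CPM in Ctrl. and at 58.4, 54.1 and 47.8 at 20 nM, and its call at 20 nM was lost with the replicate block (0.18, edgeR adjusted p = 0.127) and without 20 nM replicate 1 (adjusted p up to 0.178 over 20 alternatives). Of 7 phosphatase subunits and regulators, 1 was higher and 1 lower at 20 nM. PPP1CB, a catalytic subunit, had 0.30 (edgeR, adjusted p = 0.00152), with 222, 212 and 170 CPM at 20 nM against 177 to 182 in Ctrl. PPP1R15A, the stress-induced subunit that directs the phosphatase to eIF2, had -0.41 (edgeR, adjusted p = 0.0307), with 18.7, 22.1 and 33.4 CPM at 20 nM against 23.5 to 30.01 in Ctrl. Both calls were lost with the block (edgeR, adjusted p = 0.193 and 0.669), and that of PPP1R15A also without 20 nM replicate 1 or 2 or Ctrl. replicate 3 (adjusted p up to 0.867 over 20 alternatives). PPP1CA, another catalytic subunit, was called in the trend alone (0.13, edgeR adjusted p = 0.0387, with the block 0.0658) and kept that call in 7 of 20 alternatives.

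Of 12 transcription factors and target genes tied to eIF2 phosphorylation, 3 were called higher and 3 lower at 20 nM, with a median log2 fold change of -0.10. Over all genes 7.8% were called higher and 6.08% lower at 20 nM. The list was chosen with earlier results of these data known. ATF4, whose translation rises when eIF2 is phosphorylated, was at 145, 145 and 165 CPM in Ctrl. and 129, 128 and 169 at 20 nM. Its log2 fold change was -0.29 (edgeR quasi-likelihood test, adjusted p = 0.0230), and with the block -0.10 (adjusted p = 0.259). ASNS, an amino acid synthesis gene, had -0.34 at 20 nM (edgeR, adjusted p = 0.0333) and kept its call with the block (-0.30, adjusted p = 0.0379). PHGDH, of serine synthesis, had -0.17 (edgeR, adjusted p = 0.0295, with the block 0.895). It was at 129, 130 and 127 CPM in Ctrl. and 116, 118 and 151 at 20 nM, so that 20 nM replicate 3 lay above every control. In mean CPM PHGDH was at 129 in Ctrl. and 128 at 20 nM, and its call was also lost with only the 6 libraries compared. DDIT4, a brake on mTOR complexes, was at 37.8, 48.7 and 40.2 CPM in Ctrl. and 61.5, 71.0 and 74.4 at 20 nM, a log2 fold change of 0.62 (edgeR, adjusted p = 0.00124). VLDLR, a lipoprotein receptor, had 0.60 (edgeR, adjusted p = 0.00175) and PSAT1, also of serine synthesis, 0.19 (adjusted p = 0.0367, with the block 0.200). DDIT4 and VLDLR kept their calls at 20 nM in all 20 alternatives. The calls of ATF4, ASNS, PHGDH and PSAT1 were kept in 15, 16, 13 and 13 of the 20, and each was lost without 20 nM replicate 2 among others. ATF4, ASNS, DDIT4, VLDLR and PSAT1 also passed the threshold in the trend. Those trend calls were kept in 14, 16, 19, 19 and 9 of 20 alternatives. With the block the trends of ATF4 and PSAT1 were lost (edgeR, adjusted p = 0.229 and 0.170), and DESeq2 lost that of PSAT1 too.

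Among other translation genes, 0 of 12 cofactors of these factors (such as ABCE1, DENR and the hypusine enzymes DHPS and DOHH) and 0 of 2 mitochondrial initiation factors were called in any of the 4 comparisons by the edgeR quasi-likelihood test or DESeq2. Over all genes the share called was 0.649% at 10 nM, 13.9% at 20 nM, 2.79% between them and 17.5% in the trend. Counts of 0 in lists this short say little. Of the cofactors 2 had an unadjusted p under 0.05 at 20 nM, and the likelihood-ratio test called 1. Of 9 elongation factors, 0 were called at 20 nM (2 at an unadjusted p under 0.05, 0 by DESeq2, 1 with the replicate block) and 2 in the trend, EEF1A2 (0.20, edgeR adjusted p = 0.00633) and EEFSEC (0.22, adjusted p = 0.0178). EEF1A2, the form of eEF1A found in neurons and muscle, was at 490, 525 and 850 CPM at 20 nM against 428 to 472 in Ctrl., with 20 nM replicate 3 the highest. The trend of EEF1A2 was lost without Ctrl. replicate 1 or 3, and that of EEFSEC without Ctrl. replicate 3 or 20 nM replicate 2 or 3, while 15 and 14 of 20 alternatives kept them. Both trends were also lost with no surrogate variable, and without 20 nM replicate 3 when 1 surrogate variable was fitted. Of 3 release factors, ETF1, which reads stop codons, was called higher at 20 nM with 0.43 ± 0.05 (edgeR, adjusted p = 0.000202). ETF1 was at 127, 131 and 139 CPM in Ctrl., 143, 141 and 150 at 10 nM, and 178, 183 and 178 at 20 nM. Its conditions did not overlap, 20 nM replicate 3 lay with the other 20 nM libraries, and the call at 20 nM was kept in all 20 alternatives.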

How the data were processed

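The authors quantified reads with Salmon (version not given in the sources used here) against Ensembl 107 transcripts of GRCh38.p13, summarised them by gene and removed low genes with filterByExpr of edgeR. For each gene the deposited table gives estimated counts, of which 88.8% are not whole, for 9 libraries. Transcripts shared between near-identical copies are divided by Salmon's estimate, and whether strand was used is not stated, so overlapping genes can exchange reads. The authors' tables of fold changes and p-values, and a table already corrected for surrogate variables, were not used.

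Groups and replicate numbers came from the sample titles. Estimated counts were rounded to whole numbers. edgeR 4.0.16 (R 4.3.3) fitted all 14943 genes and 9 libraries with TMM scaling and surrogate variables from sva 3.50.0 (method be, seed 1, held between 1 and 3, giving 1 for the fit by condition and 2 for the trend). The quasi-likelihood test was used with Benjamini-Hochberg adjustment over all genes and a threshold of 0.05. Standard errors were taken as the fold change (log2) divided by the root of F. CPM used TMM scaling with no surrogate variable removed.

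Members with values in every library were those past the threshold in any comparison and those with the lowest and highest trend in each of the 6 groups. EIF2S1, EIF3J and EIF3K were added after their values were seen. Of the listed regulators, those past the threshold in the trend were named, and PPP1R15A and PHGDH were added after their values were seen. The members and lists were chosen with earlier results of these data known. Gene models and UTRs came from GENCODE 44, matched by identifier for 14105 genes and by symbol for 768 (EIF3K, EIF5A and EIF2S2P1 among them), with 70 unmatched. Alternatives were other scalings (DESeq2 size factors, library totals), a filter at 1 CPM, other numbers of surrogate variables, the replicate block, DESeq2 1.42.0, the likelihood-ratio test, only the libraries compared, mimic present or absent, and each library left out. Same-numbered libraries deviated together between Ctrl. and 10 nM (r = 0.177, 0.142 and 0.185) and between Ctrl. and 20 nM (0.116, 0.107 and 0.116), and less so between 10 nM and 20 nM for replicate 2 (0.0288). The fits were also run on simulated counts with known changes and a random batch. Those counts held no single outlying library tied to G + C, so they cannot show how the fits treat 20 nM replicate 3. Python 3.11.15 with pandas 2.3.3, numpy 2.4.6, scipy 1.17.1 and matplotlib 3.10.9 was used.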

Additional observations from a re-analysis of the deposited data

How the results depend on the processing

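Members called at 10 nM numbered 0, and 1 by DESeq2, by the likelihood-ratio test and with only the 6 libraries compared. Of all genes 0.649% were called at 10 nM, and 2.63%, 2.61% and 5.89% in those settings in the same order. At 20 nM 2 were called, against 0 with no surrogate variable and 1 with the replicate block. The block lost both EIF2A and EIF5A2 and called EIF2S1. The share of all genes called was 13.9% at 20 nM, 6.38% with no surrogate variable and 13.6% with the block. Between 20 nM and 10 nM 1 was called (2.79% of all genes), against 0 with no surrogate variable (0.448%) and with the block (0.83%). The likelihood-ratio test called 2 (5.07% of all genes). So did 1 surrogate variable without 20 nM replicate 3 (3.09%), a setting added after the data were seen. In the dose trend 4 were called, against 1 with no surrogate variable and 7 with 1 more surrogate variable. With the block 2 were called (EIF2A kept, EIF2S1 gained), and 0 with the mimic coded as present or absent. Of all genes 17.5% were called in the trend, and 8.27%, 22.0%, 16.4% and 1.1% in these settings in the same order. Leaving out each library in turn gave 0 to 4 members at 10 nM (0.228% to 8.82% of all genes) and 1 to 10 at 20 nM (7.19% to 29.2%). Between 20 nM and 10 nM it gave 0 to 2 members (0.743% to 10.0% of all genes), and in the trend 1 to 9 (9.16% to 22.2%). The cause of these differences was not tested. The other settings kept each count within 1.5 times, though not always the same members, and 0 of the called fold changes reversed. In the trend DESeq2 called EIF3A and not EIF5A2, with 17.4% of the genes it tested called. The likelihood-ratio test added EIF3G in the trend (20.7% of all genes) and EIF3J at 20 nM (17.1%). With only the 6 libraries compared EIF3B was added at 20 nM (17.1%). EIF2A kept its call at 20 nM in 18 of 20 alternatives and in the trend in 19 of 20, and EIF5A2 in 15 and 11. The alternatives that kept the EIF2A call at 20 nM all held a surrogate variable, so their number does not show that the call stands without it. That call was lost with no surrogate variable and with the replicate block, the fits that left it out. The EIF2A trend kept its call in those fits (edgeR, adjusted p = 0.0455 and 0.0342). The block changed the calls given beside the results and no other call among the members. With 3 libraries a condition, intervals of low members such as EIF2S3B reach from -0.96 to 1.04 on the log2 scale at 20 nM, so changes of that size were not detectable.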
